A study of Mus musculus with 10 samples.

Results

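The genes described here encode digestive enzymes and granule proteins of the acinar cells of the exocrine pancreas. They are 10 genes of the 18193 named on the array, and every probe set with exactly 1 of their symbols was taken, which gave 13 of 45101 probe sets. Of these, 4 measure Prss2 and 1 measures each of the others. The members were chosen because their signal differed between the diets in jejunum in these same arrays, so that difference is described and not tested.

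Acinar cells make digestive enzymes as inactive zymogens, pack them into granules and release them into the pancreatic duct, which opens into the duodenum. There enterokinase, an enzyme of the brush border encoded by Tmprss15, activates trypsinogen, and trypsin activates the other proenzymes. Intestine, liver and spleen are not known to make these enzymes in quantity, but in the mouse the pancreas is a diffuse tissue that lies in the mesentery along the duodenum and reaches the spleen. Gp2 is the exception, since M cells over the lymphoid follicles of the gut also carry it.

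All arrays came from male ICR mice, an outbred stock, that were kept in single cages and were 28 months old. From 8 months of age they had eaten the purified diet AIN-93 alone (control) or with 1 to 2% LB81 yogurt, a milk fermented by lactic acid bacteria. RNA of 5 tissues (jejunum, ileum, distal colon, spleen and liver) was pooled over 9 control or 10 yogurt-fed mice, so each diet had 1 array per tissue and 10 arrays were measured in all. Pooling averaged out the spread between mice before the measurement, and a single mouse with a high value cannot be told apart from a shift in all of them.

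The values are the deposited log2 expression values. Each array's median, between 5.42 and 5.49, served as a floor: lower values were raised to it before ratios were taken, and a gene counted as measured in a tissue when at least 1 of the 2 arrays lay above it. The 2 arrays of a tissue had Spearman correlations of 0.991 to 0.994 over all probe sets. The tissue labels fitted their markers in most respects. Fabp2, Apoa4, Lct and Alpi, genes of absorptive cells, read 10.50 to 13.36 in the control jejunum and the ileal genes Fabp6, Slc10a2 and Fgf15 lay below the floor there, while Hoxb13 reached 11.78 in the control colon, Alb 14.32 in the control liver and Ms4a1 12.28 in the control spleen. The jejunal arrays also carried bright signal of stomach genes. Gkn3, a gastrokine, read 13.16 in the control pool and 13.07 in the yogurt pool, and Tff2, a trefoil factor of stomach and duodenal glands, read 13.70 and 13.37. The transcription factor gene Pdx1, active in duodenum and pancreas, read 9.55 and 9.46.

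RefSeq promoter windows were found for all 10 members, which lie on 7 chromosomes of assembly GRCm38.p6. Acinar genes are known to be controlled by PTF1, a factor that binds an E-box next to a TTTCCC element. The windows of 4 members are shown. Those of Cel, Ctrb1 and Cpa1 were picked because they hold the marked pair of elements, and that of Cela2a as a window without it. Each sequence holds the 250 bases before the annotated start, 5′ to 3′ on the gene's own strand, and capitals mark a CANNTG and a TTTCCC, on either strand and without overlap, with at most 20 bases between them. The regions are chr2:28563404-28563653 on the minus strand for Cel, chr8:111691011-111691260 on the minus strand for Ctrb1, chr6:30638968-30639217 on the plus strand for Cpa1 and chr4:141826006-141826255 on the minus strand for Cela2a, whose window holds no such pair.
Cel: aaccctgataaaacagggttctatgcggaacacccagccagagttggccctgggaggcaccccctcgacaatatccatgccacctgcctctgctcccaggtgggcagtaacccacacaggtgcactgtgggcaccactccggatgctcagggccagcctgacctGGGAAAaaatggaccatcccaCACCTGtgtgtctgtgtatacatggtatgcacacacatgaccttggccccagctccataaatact
Ctrb1: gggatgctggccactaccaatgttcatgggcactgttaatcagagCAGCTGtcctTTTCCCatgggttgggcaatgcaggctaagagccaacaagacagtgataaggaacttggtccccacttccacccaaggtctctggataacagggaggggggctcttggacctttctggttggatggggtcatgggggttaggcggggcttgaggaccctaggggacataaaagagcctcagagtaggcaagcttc
Cpa1: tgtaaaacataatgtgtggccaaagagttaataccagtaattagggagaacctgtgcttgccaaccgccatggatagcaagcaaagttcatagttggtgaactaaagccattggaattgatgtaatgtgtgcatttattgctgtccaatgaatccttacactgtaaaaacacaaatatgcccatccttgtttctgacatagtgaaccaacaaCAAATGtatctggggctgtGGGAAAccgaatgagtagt
Cela2a: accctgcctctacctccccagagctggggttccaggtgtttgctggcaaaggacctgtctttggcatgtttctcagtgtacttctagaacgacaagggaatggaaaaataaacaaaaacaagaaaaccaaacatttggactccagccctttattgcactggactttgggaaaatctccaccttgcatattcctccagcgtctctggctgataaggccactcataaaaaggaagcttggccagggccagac
The pair occurred in 3 of the 10 member windows, those of Cel, Ctrb1 and Cpa1, and in 3.81% of all 32851 windows of this length. Taken singly, TTTCCC occurred in 5 of 10 member windows and 21.9% of all, and CANNTG in 10 of 10 and 66.2% of all. A match of letters is a description and not a binding site.

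The 4 serine proteases of the set were bright in jejunum on both diets and near or below the floor in every other tissue. Cela2a encodes a pancreatic elastase. Its log2 values were 11.94 in the control and 13.24 in the yogurt pool of jejunum, 4.66 and 4.63 in ileum, 4.65 and 4.73 in distal colon, 5.57 and 5.81 in liver, and 4.48 and 4.98 in spleen. Prss2 encodes a trypsinogen, the precursor of the protease that activates the others. It read 11.88 and 13.23 in jejunum, 5.37 and 5.32 in ileum, 5.44 and 5.48 in distal colon, 5.80 and 5.91 in liver, and 6.03 and 6.32 in spleen. Ctrb1 encodes a chymotrypsinogen. It read 11.78 and 13.13 in jejunum, 6.07 and 5.97 in ileum, 5.88 and 5.74 in distal colon, 5.67 and 5.71 in liver, and 5.42 and 5.66 in spleen. The chymotrypsin-like protease gene Ctrl read 11.16 and 12.72 in jejunum, 5.52 and 5.57 in ileum, 5.57 and 5.51 in distal colon, 4.94 and 5.07 in liver, and 5.79 and 5.86 in spleen. For each of the 4, both jejunal arrays lay far above the other 8, and the yogurt pool of jejunum was the highest array of all.

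The carboxypeptidases, which cut amino acids from the end of peptides, were likewise highest in the yogurt pool of jejunum. Cpa1, which prefers aromatic and aliphatic residues, read 11.57 in the control and 13.05 in the yogurt pool of jejunum, 4.84 and 5.02 in ileum, 4.84 and 4.77 in distal colon, 4.83 and 4.95 in liver, and 5.05 and 4.96 in spleen. Cpb1, which prefers basic residues, read 11.20 and 12.66 in jejunum, 4.08 and 4.08 in ileum, 3.96 and 3.96 in distal colon, 3.76 and 4.12 in liver, and 3.74 and 4.06 in spleen. Neither gene rose above the floor on any array outside jejunum.

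Of the lipid enzymes, Cel encodes the bile salt-dependent ester lipase. It read 10.95 in the control and 12.63 in the yogurt pool of jejunum, 4.88 and 5.08 in ileum, 5.07 and 4.69 in distal colon, 4.82 and 5.20 in liver, and 4.90 and 4.85 in spleen. Pnliprp1, a relative of pancreatic lipase, read 10.77 and 12.59 in jejunum, 5.16 and 5.51 in ileum, 5.23 and 5.32 in distal colon, 4.41 and 5.83 in liver, and 4.22 and 4.10 in spleen. Cel stayed below the floor on all 8 arrays outside jejunum. Pnliprp1 passed it slightly in the yogurt pools of ileum and liver, with the control pools below it.

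The 2 granule proteins differed from each other outside jejunum. Gp2 encodes the main glycoprotein of the zymogen granule membrane. It read 9.64 in the control and 11.39 in the yogurt pool of jejunum, 6.18 and 5.92 in ileum, 6.92 and 6.55 in distal colon, 4.37 and 4.34 in liver, and 6.07 and 5.86 in spleen. Like Ctrl, it lay above the floor in ileum, distal colon and spleen on both diets. Cuzd1, a granule membrane protein with CUB and zona pellucida domains, read 7.34 and 9.74 in jejunum, 4.37 and 4.50 in ileum, 4.33 and 4.14 in distal colon, 4.52 and 4.78 in liver, and 4.27 and 4.27 in spleen. Levels of different probe sets cannot be ranked against each other, so these values order arrays and not genes.

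**Figure D1:**
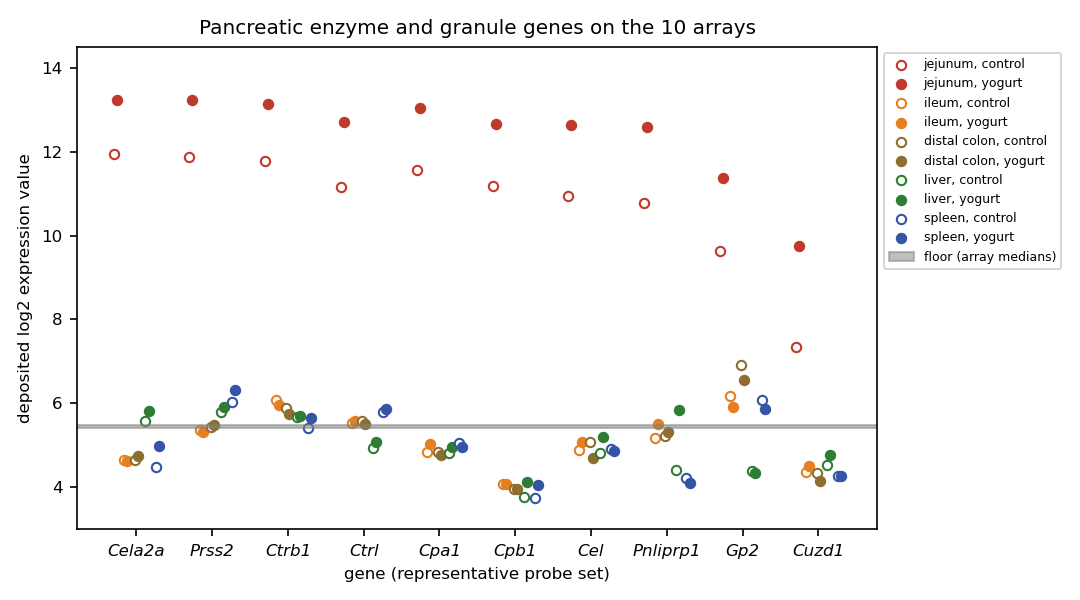
Deposited log2 expression value (vertical axis) of the representative probe set of each of the 10 genes (horizontal axis) on the 10 arrays. Open circles are control pools, filled circles yogurt pools, colours are tissues and the grey band is the range of the array medians used as floor. All jejunal values lie between 7.34 and 13.24, and no value outside jejunum exceeds 6.92.

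The pancreatic genes were higher in the yogurt pool of jejunum, by 2.46-fold for Cela2a to 5.28-fold for Cuzd1. All 10 members passed 2-fold, with a median log2 ratio of 1.52. Of 12279 measured genes, 40 or 0.326% were 2-fold higher and 0.0244% were 2-fold lower, and the median of all was -0.011. Nothing is read from that difference in counts, because the members were chosen by this ratio. With 1 array per diet it has no replicate check, and in bulk tissue more cells and more RNA per cell cannot be told apart. Among themselves the members had an SD of 0.33, or 0.19 without Cuzd1. The serine proteases had log2 ratios of 1.30 to 1.56, the carboxypeptidases 1.47 and 1.48, and the lipid enzymes 1.68 and 1.82. Of the granule proteins, Gp2 had 1.74, between the 2 lipid enzymes, and Cuzd1 had the highest ratio of the set at 2.40. The members ranked from 5 to 28 among the measured genes by this ratio.

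**Figure D2:**
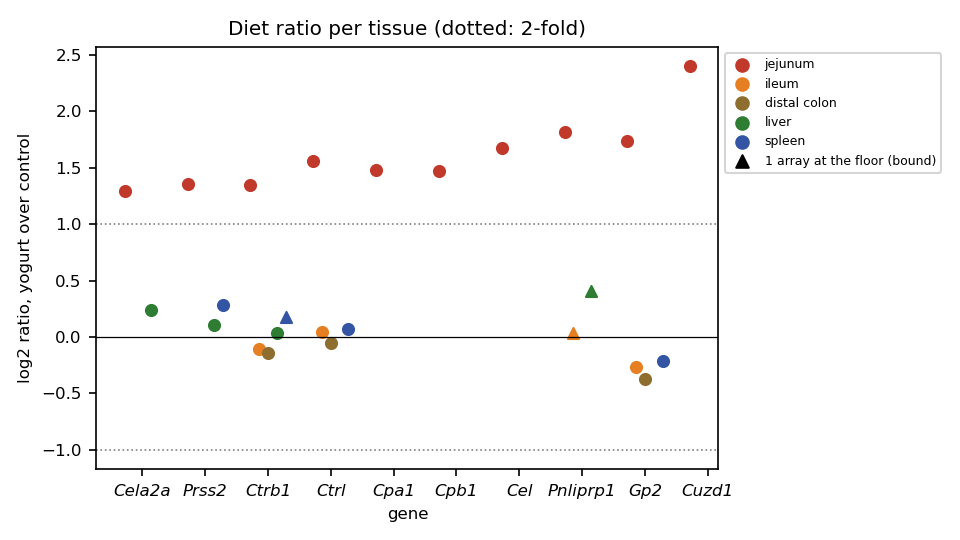
Log2 ratio of the yogurt over the control pool (vertical axis) for each gene (horizontal axis), coloured by tissue. Circles have both arrays above the floor, triangles are bounds with 1 array at the floor, genes with both at the floor are not drawn, and dotted lines mark 2-fold. The jejunal ratios lie between 1.30 and 2.40, and those of the other tissues between -0.37 and 0.41.

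The probe sets of Prss2 agreed in direction and differed in size. The probe set that represents the gene went from 11.88 to 13.23, a log2 difference of 1.35. The other 3, whose names end in x_at and which can bind transcripts of related trypsinogen genes, went from 10.86 to 12.39 (1.53), from 11.78 to 13.13 (1.35) and from 11.99 to 13.10 (1.10). The dimmest of these 4 in the control pool thus had the largest difference and the brightest had the smallest. A similar order held in Cela3b, an elastase outside the set, whose 4 probe sets started at 10.81, 10.94, 11.48 and 12.56 in the control pool and differed by 1.79, 1.64, 1.55 and 1.26. In 2210010C04Rik the 3 probe sets started at 7.36, 11.52 and 12.01 and differed by 2.23, 1.33 and 1.26. Over the 9 pancreatic genes with several probe sets above the floor, the dimmest had the larger difference in 5. Among the other 4, Pla2g1b went from 7.28 by 1.88 and from 7.94 by 2.39. These genes were named after their values were seen, and a part of signal strength in the size of the ratios was not tested.

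**Figure D3:**
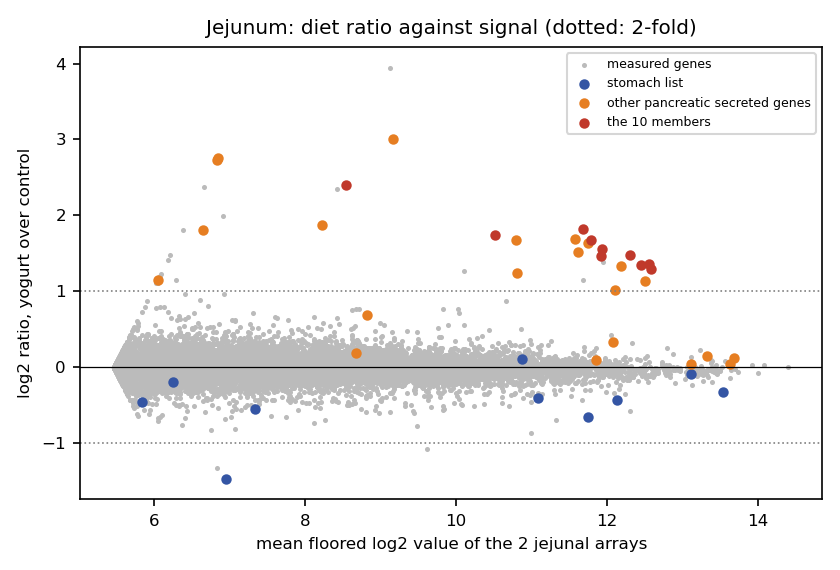
Log2 ratio of yogurt over control in jejunum (vertical axis) against the mean floored log2 value of the 2 jejunal arrays (horizontal axis), 1 point per measured gene. The 10 members are red, other secreted pancreatic genes orange, stomach genes blue and all other genes grey, with dotted lines at 2-fold. All members lie above the upper line, and the dimmest of them, Cuzd1, has the largest ratio of the set.

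Outside jejunum none of the 3 or 4 members measured per tissue was 2-fold higher or lower. The other members lay at the floor on both arrays of a tissue and could show no ratio there. With so few measured, nothing is read from these counts beside the shares of all genes. In ileum 4 members were measured, with a median ratio of -0.036 against -0.039 over all genes, and 0 were 2-fold higher where 0.065% of all were 2-fold higher and 0.0325% lower. In distal colon the 3 measured members had a median of -0.14 against -0.014, and 0 passed 2-fold, where 0.356% of all were higher and 0.0162% lower. In liver 4 were measured with a median of 0.17 against -0.026, and 0 were 2-fold higher where 0.148% of all were 2-fold higher and 0.0493% lower. In spleen 4 were measured with a median of 0.12 against -0.048, and 0 passed 2-fold, where 0.194% of all were higher and 0.135% lower. The largest of these ratios was that of Pnliprp1 in liver, at least 1.33-fold (0.41) with the control at the floor, and its log2 ratio became 1.42 when the deposited values were taken without a floor. Gp2 was lower in the yogurt pool of distal colon (-0.37), ileum (-0.26) and spleen (-0.21), set against the span that holds the central 95% of all genes, -0.31 to 0.37 in distal colon, -0.34 to 0.28 in ileum and -0.47 to 0.38 in spleen. Gp2 in distal colon lay below that span, and its values in ileum and spleen lay inside it. Genes of M cells, which also carry Gp2, had medians of 0.016 in distal colon and 0.065 in ileum over 6 measured genes. Adipocyte genes moved in the gut segments where the measured members did not pass 2-fold. Of these genes, 5 of 5 measured were higher in the yogurt pools of ileum (median 0.82) and distal colon (median 1.62). Of all genes, 37.9% were higher in ileum and 45.3% in distal colon. The part of adipocyte genes in these ratios was not tested.

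The tissues were then compared with limma across 13604 genes, with tissue and diet as terms over the 10 arrays and 4 residual degrees of freedom. For all 10 members jejunum was called higher than each other tissue and for 0 it was called lower, a call being an adjusted p (Benjamini-Hochberg) below 0.05 with a 2-fold difference or more. The share of all genes called higher in jejunum was 2.26% against ileum, 4.52% against distal colon, 14.8% against liver and 16.5% against spleen, and the share called lower was 2.68%, 7.67%, 11.2% and 11.9%. All 10 members were chosen from the jejunal arrays, so the counts and p-values of these contrasts are descriptions and no support. Of the members, 4 (Cpa1, Cpb1, Cel and Cuzd1) lay above the floor only in jejunum and so also passed the filter on low values through it. Differences against a tissue at the floor are lower bounds. Jejunum exceeded ileum by 6.44 ± 0.33 (log2, SE) for Ctrb1, an 86.6-fold difference with an adjusted p of 6.88e-06 in limma. For Gp2 the difference was 4.46 ± 0.46 (adjusted p = 0.000267 in limma), and against distal colon it was 3.78 ± 0.46, or 13.7-fold (adjusted p = 0.000239 in limma). Cuzd1 had the smallest difference from ileum, at least 8.39-fold (3.07 on the log2 scale), given as a description because it passed the filter only through jejunum. That difference was 1.87 without the jejunal yogurt array and 4.26 without the jejunal control array, where the single jejunal array left is assumed to vary like the other tissues, and the jejunal differences of the other members moved with these 2 arrays too. The tissues are those of the same 9 and 10 mice, so the spread behind these p-values is that of the diet ratio between tissues, and no spread between mice enters.

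Both jejunal arrays took part in choosing the members, so the order of the tissues is not independent of that choice. On the control arrays alone, jejunum stood at least 3.62-fold above the next tissue for Cuzd1, 6.59-fold for Gp2 and 83.0-fold for Cela2a. Below jejunum the tissues were hard to order. Spleen and liver had 0 members called apart, where 16.9% of all genes were called higher and 16.3% lower in spleen. No member had an unadjusted p under 0.05 in limma. Cpa1, Cpb1, Cel and Cuzd1 lay at the floor in both tissues, so no call was possible for them. In this fit the SE of a member also takes in its large diet ratio in jejunum, so the count cannot be set against those shares. The member nearest to a call was Gp2, with a floored mean of 5.97 in spleen against 5.43 in liver, a difference of 0.53 ± 0.46 (adjusted p = 0.332 in limma). The next highest tissue of Gp2 after jejunum was distal colon, at 6.92 and 6.55, against 6.18 and 5.92 in ileum and 6.07 and 5.86 in spleen. These differences from distal colon were not tested. For Prss2 and Ctrl spleen came second, for Ctrb1 ileum and for Cela2a liver. In Prss2 this was the order of the representative probe set. Its dimmest jejunal probe set had ileum (5.70) above spleen (5.55) in the yogurt pools, but not in the control pools (5.43 and 5.59).

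The other secreted pancreatic genes also had higher values in the yogurt pool of jejunum, but not all of them by 2-fold. Over the 3 lists, which share no gene with the members, 22 were measured. The yogurt pool gave the higher value for 22 of them, 14 passed 2-fold and the median was 1.19. Of all measured genes, 46.5% were higher in the yogurt pool of jejunum and 0.326% were at least 2-fold higher, a share that includes these genes. These are the same 2 arrays that chose the members, and the lists were drawn up with earlier results of them known. Among 6 other proteases, 5 were at least 2-fold higher. The trypsinogen gene Prss3 went from 5.21 to 8.20, at least 6.60-fold, and the chymotrypsin C gene Ctrc from 9.96 to 11.64, or 3.19-fold. The elastase gene Cela3b was 3.12-fold higher, 2210010C04Rik was 2.52-fold higher and Cela1, an elastase that read 12.64 and 12.39 in distal colon, went from 11.95 to 13.08, or 2.19-fold. The kallikrein gene Klk1, also brighter in distal colon (13.27 and 13.41) than in jejunum, differed by 1.26-fold. Among the enzymes for fat, starch and nucleic acids, 5 of 6 were at least 2-fold higher. They were the phospholipase gene Pla2g1b (3.68-fold), the ribonuclease gene Rnase1 (3.22-fold), the lipase relative Pnliprp2 (2.36-fold), the amylase gene Amy1 (at least 2.22-fold) and Clps, the colipase gene (2.02-fold). The nuclease gene Dnase1 differed by 1.13-fold. Amy1 was much brighter in liver, with a floored mean of 12.01 against 6.05 in jejunum, where its control value lay below the floor. The 2 probe sets of Clps gave 2.02-fold and 1.88-fold.

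The granule and secreted proteins split into 2 groups. Reg2, a secreted protein of acini and islets, went from 7.67 to 10.68, or 8.04-fold, the serpin gene Serpini2 from 5.24 to 8.23, at least 6.75-fold, and Reg3d from 5.75 to 7.55, or 3.48-fold. Sycn, a granule membrane protein, went from 10.86 to 12.38, or 2.87-fold. Tmed6 differed by 1.60-fold and Dmbt1 by 1.11-fold. The remaining 4, named after their values were seen, hardly differed. Reg1 read 13.61 and 13.65, the lectin gene Itln1 13.09 and 13.13, the lectin gene Zg16 13.64 and 13.75, and the trypsin inhibitor gene Spink1 11.82 and 11.90. Of these, 3 were also bright in ileum, where Itln1 read 12.80 and 12.96, Zg16 13.98 and 14.02, and Spink1 12.52 and 12.53, but Reg1 was not, at 7.74 in the control and 5.97 in the yogurt pool. Sycn read 13.68 and 13.55 in distal colon and 8.74 and 8.76 in ileum. Whether signal of the gut itself bears on the size of a jejunal ratio was not tested.

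Genes of the acinar secretory apparatus differed by less. Of 11 measured, 9 were higher, 2 of them by 2-fold or more, and the median was 0.65. Of all genes, the same 46.5% were higher and 0.326% at least 2-fold higher. Pdia2, a protein disulfide isomerase of the acinar endoplasmic reticulum, went from 7.26 to 9.60, or 5.07-fold. Cckar, the receptor through which cholecystokinin drives secretion, went from 4.39 to 6.89, at least 2.66-fold. The arginine-glycine amidinotransferase gene Gatm had a log2 ratio of 0.96 and Gnmt, a glycine methyltransferase, 0.80. The acinar transcription factors had a median of 0.12 over 6 measured genes, and 0 were 2-fold higher, where 0.326% of all genes were. Several of them also had signal in other tissues. Floored means were 12.18 in ileum and 12.61 in liver for Xbp1, and 8.95 and 9.98 for Nr5a2. Those of Bhlha15 were 7.25 in ileum and 7.32 in spleen. Whether signal of the gut itself bears on these ratios was not tested. Ptf1a, the defining factor of acinar cells, rose above the floor only in the yogurt pool of jejunum, from 4.47 to 5.71, a ratio of at least 0.23. Bhlha15, a factor of secretory cells, had a ratio of 0.21, Gata4 0.15 and Nr5a2 -0.13.

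Markers of neighbouring cell types also differed on the same 2 arrays, and their part in the result was not tested. Beside the counts given here, 46.5% of all measured genes were higher in the yogurt pool, with a median of -0.011. The islet list had 5 measured genes of 9 on the array, with 2 higher and 3 lower in the yogurt pool. Ins2 went from 5.93 to 7.91, or 3.96-fold, and Iapp had a ratio of 0.49, whereas the gut also expresses Gcg (-0.22), Sst (-0.44) and Pdx1 (-0.085). The summed antilogged signal of the islet list was 1706 in the control and 1683 in the yogurt pool, and Ppy, G6pc2, Slc30a8 and Nkx6-1 lay at the floor in both. Of 6 duct genes, which gut epithelium shares, 5 were lower, led by Slc4a4 (-0.18), Krt19 (-0.11), Muc1 (-0.076) and Sox9 (-0.057), and their summed signal was 10378 and 9664. Stomach genes ran the other way. Of 10 measured, 9 were lower (median -0.42) and their summed signal was 37087 and 30100, with Gast, the gastrin gene, at -1.47, Tff1 at -0.66, Muc5ac at -0.56 and Pgc at -0.46, while Atp4a, Cblif and Chia1 lay at the floor. Of the 4 adipocyte genes measured 3 were higher, Car3 at a ratio of at least 0.80, Lpl at 0.29 and Fabp4 at 0.10, and Retn was at -0.11, with summed signals of 1583 and 1756, and Adipoq and Lep lay at the floor in both pools. Of 6 measured M cell genes 2 were higher and 4 lower (median -0.077), with Ccl20 at -0.47, Tnfaip2 at 0.29, Spib at -0.28 and Tnfrsf11a at -0.14. Stomach genes, Ins2 and acinar genes differed on the same 2 arrays, and how much stomach, duodenum or pancreas went with each pool of jejunum cannot be told apart from the diet.

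The partners of the pancreatic enzymes in the gut wall mostly had slightly lower values in the yogurt pool. Tmprss15, the enterokinase gene, read 8.06 in the control and 7.95 in the yogurt pool of jejunum and lay at the floor on the other 8 arrays. Of 13 brush border hydrolase and peptidase genes, 12 were lower and 1 was higher, where 46.5% of all genes were higher, with a median of -0.13 against -0.011 over all genes and 0 past 2-fold. The lowest were the meprin gene Mep1a (-0.57), the lactase gene Lct (-0.51), the aminopeptidase gene Xpnpep2 (-0.23) and the alkaline phosphatase gene Alpi (-0.18). Of the 5 measured hormone genes that act on pancreatic secretion, 4 were lower, where 46.5% of all genes were higher. Gip was at -0.47, Cck at -0.41, secretin (Sct) at -0.33 and Gast, which is also in the stomach list, at -1.47. Vip was at 0.12.

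**Figure D4:**
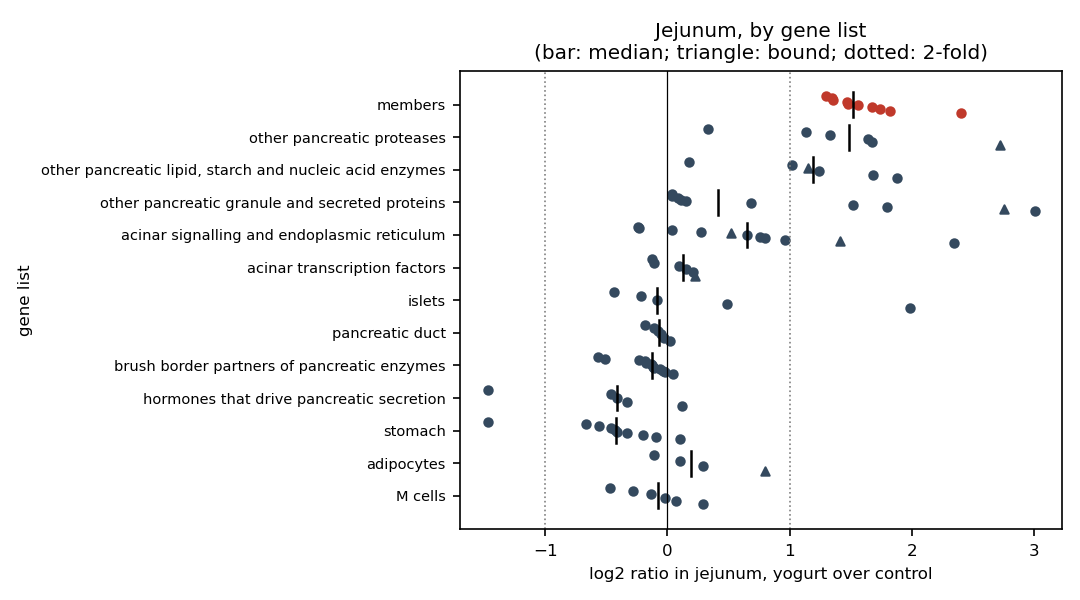
Log2 ratio of yogurt over control in jejunum (horizontal axis) for each measured gene of 13 gene lists (vertical axis), with the 10 members in red. Bars are list medians, triangles are bounds with the control at the floor and dotted lines mark 2-fold. The median is 1.52 for the members, 1.49, 1.19 and 0.42 for the other secreted pancreatic lists, 0.12 for acinar transcription factors and -0.42 for stomach genes. Xbp1, Nr5a2 and Bhlha15 of the transcription factor list also lay above the floor in ileum.

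The genes whose pattern over the 10 arrays was most like the mean of the members were partly pancreatic. Among 8408 other genes that varied by at least 1 on the log2 scale, the 8 with the highest Pearson correlation were Rnase1, Ctrc, 2210010C04Rik, Ang3, Trpm5, Anxa10, Cela3b and 2310057J18Rik, from r = 0.9999 down to 0.988. The points share tissue and mice, and the contrast of jejunum with the other tissues dominates the measure. It also picked genes with smaller diet ratios than those of the members. Ang3 read 6.77 and 7.38 in jejunum, the annexin gene Anxa10 8.82 and 9.22, Trpm5, an ion channel of chemosensory cells, 6.58 and 6.74, and 2310057J18Rik 12.17 and 12.08. The ratios of Ang3 (0.61) and Anxa10 (0.40) still lay above the central span of all jejunal genes, which ended at 0.33. The members themselves correlated with their mean at 0.966 for Cuzd1 to 0.9999 for Cel.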

How the data were processed

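Per the labels' protocols, 100 ng of each RNA pool was amplified, labelled with biotin and hybridised to 1 mouse expression array. The deposited values are log2 expression values per probe set. MAS5 and affy are listed, without version or role, per the submitters' processing notes, and no source used here gives the scaling. Nothing further was scaled, and no scanner files were used, so saturation was not checked. The 64 array controls were left out.

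Gene names came from the annotation of the platform, updated by gene number to RefSeq symbols (GRCm38.p6). A single symbol was given to 34945 probe sets, several to 932 (not used) and none to 9160 (unnamed here). Each gene was represented by its brightest probe set, by mean over all arrays. Promoters were taken from RefSeq.

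The members and lists were chosen with earlier results of these data known. Named were the 10 members, the up to 6 genes of the other pancreatic and islet lists and 4 of other lists with the largest jejunal ratio, all genes of lists with up to 5 measured, and the 8 most similar genes. Further names are marked as chosen afterwards or serve as markers.

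The diets were compared by log2 ratio without a test. Tissues were compared with limma 3.58.1 (R 4.3.3, lmFit and eBayes with trend), tested on simulated data. Alternatives were floors at the 35th and 65th percentiles, no floor, a pseudocount of 32, median centring, quantile normalisation, the mean of probe sets, no filter, no diet term and each array left out. The number of arrays limits the precision. No batch is given in the labels.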

Additional observations from a re-analysis of the deposited data

Results flagged for a closer look

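For 3 members the diet ratio had opposite signs in jejunum and in another tissue with both arrays above the floor in each. The sign in jejunum was fixed by the choice of the members. Of all measured genes, 37.9% were higher in the yogurt pool of ileum, 45.3% in distal colon and 38.5% in spleen. Lower ratios were thus the more common ones there. Gp2 was higher in the yogurt pool of jejunum (1.74) and lower in that of distal colon (-0.37), ileum (-0.26) and spleen (-0.21). Ctrb1 was higher in jejunum (1.34) and lower in distal colon (-0.14) and ileum (-0.11). Ctrl was higher in jejunum (1.56) and lower in distal colon (-0.054). The central span of all genes was -0.31 to 0.37 in distal colon, -0.34 to 0.28 in ileum and -0.47 to 0.38 in spleen. Of the lower ratios named here, only that of Gp2 in distal colon lay outside the span of its tissue. With 1 array per diet and tissue the difference between tissues was not tested, and the values outside jejunum lay within 1.5 of the floor.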

How the results depend on the processing

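In jejunum all 10 members stayed at least 2-fold higher under each of the 7 alternatives, with ratios of 1.29 to 2.43 and medians of 1.46 to 1.53. The members were chosen by this ratio on the same 2 arrays and lay above every floor there. The count could therefore hardly change and is no support. In liver the count of members at least 2-fold higher was 1, against 0, both without a floor and with a floor set at the 35th percentile. That gene was Pnliprp1, at 1.42 and 1.11, and its control value lay below the floor. All 10 members were called higher in jejunum than in each other tissue under the 6 other settings (differences of 1.83 to 7.88) and when any array of the compared tissues was left out (10 to 10, differences of 1.86 to 7.73, adjusted p at most 0.0399 in limma), where a tissue left with 1 array is assumed to vary like the others. These counts include the 4 members that passed the filter only through jejunum. All 10 were chosen from the jejunal arrays, so the counts and p-values are no support. Between spleen and liver the count was 0 to 0 when arrays were left out, and 1 with that lower floor, where Gp2 reached 1.24 (adjusted p = 0.0338 in limma). The labels give no replicate numbers. The diet term pairs the tissues by pool of mice, and leaving it out changed no call of a member. Signal near the floor limits what the arrays can show outside jejunum.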
